A study of Mus musculus with 6 samples.

Results

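Open chromatin was examined across the cluster of IL-1 and IL-18 receptor genes on mouse chromosome 1. The 6 genes, in order along the plus strand, are Il1r2, Il1r1, Il1rl2, Il1rl1, Il18r1 and Il18rap. Every ATAC-seq peak that lay between the start of Il1r2 and the end of Il18rap, or within 50 kb on either side, was taken, which is the window chr1:40024079-40601705 of the mm10 build (577.627 kb). Peaks of the 6 libraries that overlapped or touched were joined into sites. This gave 193 peaks and 55 sites, out of 236017 sites in the genome. The rule took the genes by their position and used no measured value.

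The libraries came from T helper cells of C57BL6/J mice, with 2 libraries (replicates 1 and 3) of each of 3 subsets. Naive CD4 T cells of the spleen, which the methods also took from lymph nodes, were activated through CD3 and CD28 in all cultures, with interferon-γ blocked, and were collected at the end of the same culture period. Th2 cultures received IL-4 and IL-2, and Th9 cultures received IL-4, IL-2 and TGF-β1. Th17 cultures received IL-6, TGF-β1, IL-23 and IL-1β, with IL-4 and IL-2 blocked, so that only the Th17 cultures contained a ligand of a receptor of this cluster. All cells were wild type and were grown in vitro. ATAC-seq uses the Tn5 transposase to cut DNA where chromatin is accessible, and a peak marks DNA that was cut more often than the background of its library. The lists held 100317 to 142213 peaks, called over a background of 5.65 to 17.7 fragments per position. Th9 replicate 1 was the shallowest library, and its weakest peak was enriched 2.11-fold, where the weakest peaks of the other 5 lists lay at 1.71 to 1.83. A site listed with no peak was therefore below the level its list could call, and least can be said of weak sites in Th9 replicate 1.

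The 6 receptors belong to the IL-1 receptor family and signal, where they signal, through a shared Toll/IL-1 receptor domain, the adaptor MyD88, IRAK kinases and TRAF6. Il1r1 encodes the signalling receptor for IL-1α and IL-1β, and Il1r2 encodes a decoy receptor that binds IL-1 without signalling. Il1rl2 encodes the receptor for the IL-36 cytokines, and Il1rl1 encodes ST2, the receptor for the alarmin IL-33. Il18r1 and Il18rap encode the ligand-binding chain and the accessory chain of the IL-18 receptor. IL-1 signalling promotes Th17 differentiation, ST2 marks Th2 cells and other cells of type 2 immunity, and the IL-18 receptor is best known on Th1 and natural killer cells.

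Sites are named here by gene and by the distance, in kb, from the first annotated start of that gene to the middle of the site. The 6 sequences that follow are from the RefSeq copy of GRCm38, plus strand. They are examples of sites called in some subsets alone or stronger in 1 subset. Other such sites are not shown, among them Il1r2 -25.2 kb and Il1r1 -34.8 kb, so the words in the examples do not stand for a calling pattern. Each sequence shown is the central stretch of its site, except that the Il1r1 promoter stretch ends just before the first transcribed base. Capitals mark matches, on either strand, to 5 short words known as binding motifs: AGATAA or TGATAA for GATA factors, TGANTCA for AP-1 and BATF, TTCNNNGAA for STAT5, TTCNNNNGAA for STAT6 and AACCACA for RUNX factors. A match describes the letters and does not show that a factor was bound.
Il18r1 +14.1 kb, chr1:40479521-40479820: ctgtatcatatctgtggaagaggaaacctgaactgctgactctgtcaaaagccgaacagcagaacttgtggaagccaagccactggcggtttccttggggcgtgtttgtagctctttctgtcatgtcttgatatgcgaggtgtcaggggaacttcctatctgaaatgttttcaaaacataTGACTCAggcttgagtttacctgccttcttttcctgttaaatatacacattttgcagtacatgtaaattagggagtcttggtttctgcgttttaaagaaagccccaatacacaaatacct
Il1r1 +46.2 kb, chr1:40271166-40271465: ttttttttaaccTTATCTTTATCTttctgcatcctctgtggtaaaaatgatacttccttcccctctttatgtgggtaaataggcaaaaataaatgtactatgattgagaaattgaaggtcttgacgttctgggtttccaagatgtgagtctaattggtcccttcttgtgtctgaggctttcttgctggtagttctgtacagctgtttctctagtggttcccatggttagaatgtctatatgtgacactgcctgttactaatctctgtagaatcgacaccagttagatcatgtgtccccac
Il1r1 promoter, chr1:40224780-40225079: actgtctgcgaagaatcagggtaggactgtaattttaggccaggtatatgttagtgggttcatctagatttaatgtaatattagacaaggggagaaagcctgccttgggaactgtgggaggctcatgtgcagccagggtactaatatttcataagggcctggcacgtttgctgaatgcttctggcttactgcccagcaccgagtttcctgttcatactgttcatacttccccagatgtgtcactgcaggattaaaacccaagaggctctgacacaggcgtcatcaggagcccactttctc
Il1r1 -7.7 kb, chr1:40217189-40217488: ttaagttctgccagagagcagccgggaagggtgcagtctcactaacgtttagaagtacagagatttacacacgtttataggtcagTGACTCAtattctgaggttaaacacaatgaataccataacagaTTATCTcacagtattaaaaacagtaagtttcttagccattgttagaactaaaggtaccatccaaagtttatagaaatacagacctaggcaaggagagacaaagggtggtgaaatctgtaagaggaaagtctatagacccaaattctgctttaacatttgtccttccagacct
Il1rl1 +19.9 kb, chr1:40449370-40449669: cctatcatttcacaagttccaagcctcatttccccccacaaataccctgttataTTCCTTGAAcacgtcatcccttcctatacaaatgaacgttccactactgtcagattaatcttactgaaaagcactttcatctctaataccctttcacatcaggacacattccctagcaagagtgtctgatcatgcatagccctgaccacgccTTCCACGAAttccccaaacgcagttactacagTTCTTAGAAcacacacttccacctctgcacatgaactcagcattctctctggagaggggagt
Il1rl1 -36.1 kb, chr1:40393336-40393635: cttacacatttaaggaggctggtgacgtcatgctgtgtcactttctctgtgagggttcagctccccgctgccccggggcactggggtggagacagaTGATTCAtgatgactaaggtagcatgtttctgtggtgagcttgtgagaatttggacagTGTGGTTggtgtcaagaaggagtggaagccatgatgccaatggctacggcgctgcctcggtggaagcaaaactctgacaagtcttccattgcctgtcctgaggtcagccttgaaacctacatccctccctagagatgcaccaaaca
The first, in an intron of Il18r1, was called in the Th17 libraries alone and holds a single AP-1 word. The second, in an intron of Il1r1, was called in the Th9 and Th2 libraries alone and holds a pair of adjoining GATA words. The Il1r1 promoter was called in the Th2 and Th17 libraries, and its stretch holds none of the words. The site upstream of Il1r1 was called in the Th17 libraries alone and holds an AP-1 and a GATA word. The Il1rl1 intron site was called in the Th9 libraries alone and holds 3 STAT5 words, while the site upstream of Il1rl1, open in all 6 libraries and strongest in Th2, holds an AP-1 and a RUNX word.

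**Figure D1:**
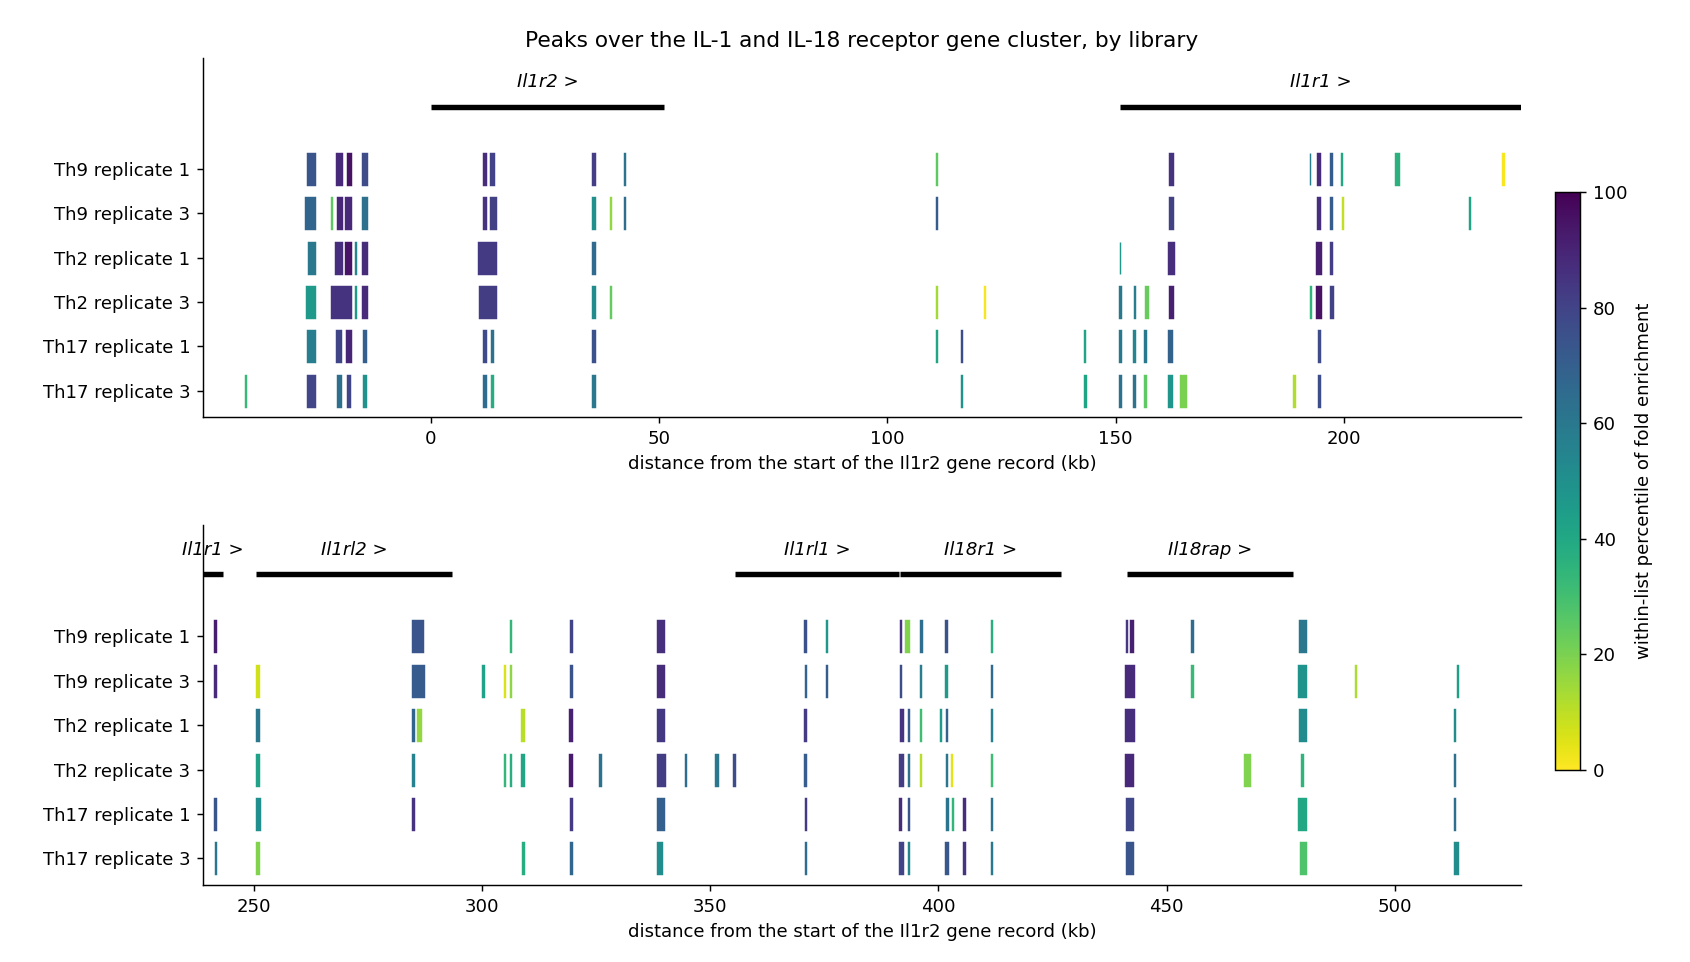
Peaks of each library (rows) over the 6 genes, drawn to scale along the distance in kb from the start of the Il1r2 gene record and coloured by the within-list percentile of fold enrichment; black bars are gene bodies, transcribed from left to right, and the lower panel continues the upper. The space between Il1r2 and Il1r1 holds 4 weak or moderate sites, and a row of peaks just upstream of Il1rl1 is present in Th2 replicate 3 alone.

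The cluster was covered by peaks about as densely as the rest of the genome. The window held 32 and 35 peaks in the Th9 libraries (replicates 1 and 3), 27 and 38 in the Th2 libraries, and 30 and 31 in the Th17 libraries. Of the 193 peaks, 120 lay in or over the 6 gene bodies. The share of the window under peaks was divided by the share of the genome under peaks in the same list. This relative coverage was 1.04 and 1.45 in the Th9 libraries, 0.943 and 1.28 in the Th2 libraries and 0.957 and 1.06 in the Th17 libraries, so the subsets overlapped and replicate 3 was higher in each. Th9 differed from the other 4 libraries by 0.19 (exact two-sided permutation test, p = 0.4), Th2 by -0.012 (p = 0.933) and Th17 by -0.17 (p = 0.533), where the smallest p the design allows is 0.0667. The peaks were of moderate strength. On a scale from 0 to 100 for the rank of a peak's fold enrichment in its own list, the median of the window's peaks ran from 58.6 in Th2 replicate 3 to 74.4 in Th9 replicate 1, and 9 of the 193 peaks lay above 90. The highest fold enrichment in the window was 8.67, in an intron of Il1r1 in Th2 replicate 3.

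Of the 55 sites, 15 were called in all 6 libraries, where 21.4% of all sites in the genome were. A further 12 sites were called in both libraries of 1 or 2 subsets and in no library of the rest, against 9.74% genome-wide. Among them, 4 were called in Th9 alone (1.31% genome-wide), 3 in Th17 alone (1.70%), 1 in Th2 alone (2.87%), 2 in Th9 and Th2 (2.0%), 1 in Th2 and Th17 (1.55%) and 1 in Th9 and Th17 (0.296%). These 12 sites lay in the bodies of Il1r2, Il1r1, Il1rl1, Il18r1 and Il18rap or upstream of Il1r2 and Il1r1, and Il1rl2 had none. Another 15 sites were called in a single library, against 37.2% genome-wide. Of these, 6 were in Th2 replicate 3, which alone called 4.81% of all sites, and 0 were in Th17 replicate 1 (6.10%). Th9 replicate 1 held 2 (11.2%) and Th9 replicate 3 held 3 (4.31%), while Th2 replicate 1 held 1 (7.95%) and Th17 replicate 3 held 3 (2.79%).

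**Figure D2:**
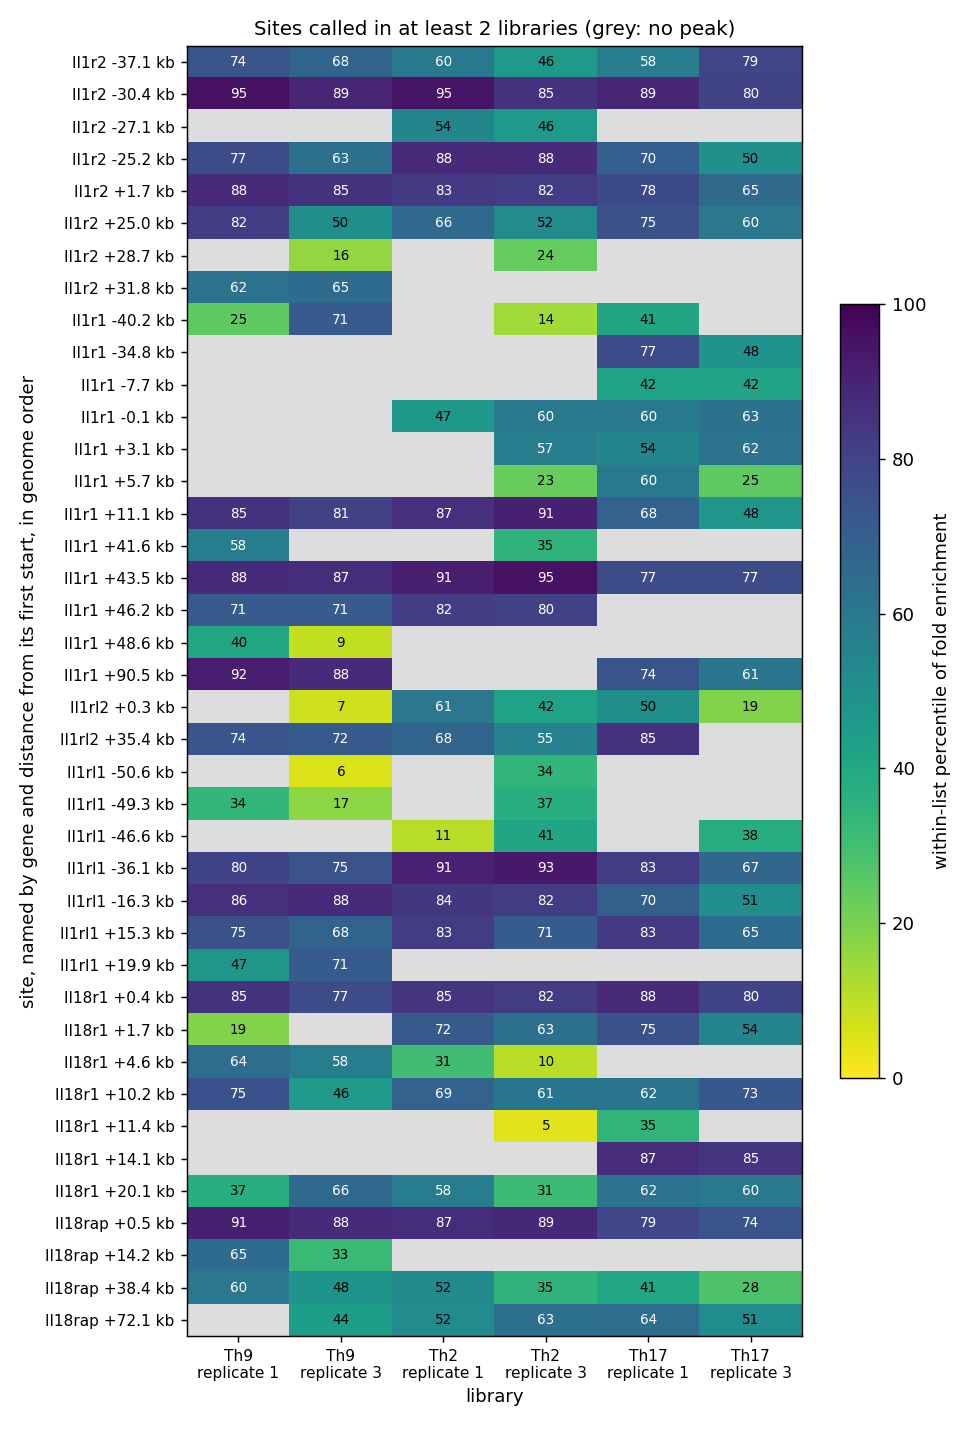
Within-list percentile of fold enrichment (number and colour) in the 6 libraries (columns) for the 40 sites called in at least 2 libraries (rows, in genome order); grey cells had no peak. The Il18r1 +14.1 kb row is filled in the Th17 columns alone, at 87.3 and 84.9, and the Il1r1 +46.2 kb row in the Th9 and Th2 columns alone.

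Il1r2, the decoy receptor gene (ENSMUSG00000026073.13, chr1:40074079-40125231), stood behind a set of upstream sites shared by every library. The strongest, at -30.4 kb (chr1:40052131-40056500), was at percentiles 95.4 and 89.2 in Th9, with 94.9 and 85.3 in Th2 and with 89.3 and 79.6 in Th17. The ranges of Th9 and Th2 overlapped there, and Th17 replicate 3 was the lowest. At -37.1 kb (chr1:40046593-40048688) the percentiles were 74.0 and 67.9 in the Th9 libraries, 59.8 and 46.4 in the Th2 libraries and 57.7 and 79.0 in the Th17 libraries, and 95% of the central 300 bp there was repeat-masked. Between them and the gene, a narrow site at -27.1 kb (chr1:40057389-40057720) was called in the Th2 libraries alone, at 54.0 and 46.4. A farther site, at -51.3 kb, was called in Th17 replicate 3 alone, at 32.9.

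The -25.2 kb site of Il1r2 (chr1:40059033-40060018) was called in all 6 libraries and differed in strength. Its percentiles were 77.0 and 62.9 in the Th9 libraries, 87.7 and 88.2 in the Th2 libraries and 70.2 and 49.8 in the Th17 libraries. Both Th2 libraries were above the other 4. Fold enrichment was compared between subsets with limma on log2 values, quantile-normalized across the lists, over the 50493 sites called in every library. The Th2 value was higher than the Th17 value by 0.87 on the log2 scale (SE 0.16, limma adjusted p = 0.00857), and the difference of Th9 from Th2, -0.68 (SE 0.16), just missed the threshold (limma adjusted p = 0.0508). Without Th2 replicate 3 or Th17 replicate 3 the Th2 to Th17 difference was no longer called, with an adjusted p up to 0.116, but was at least 0.73.

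At the start of the 1 transcript of Il1r2 in the basic annotation set (40084698) the shape of the open region differed. Site distances for Il1r2 are counted from this start. The gene record begins upstream of it, at 40074079, where no promoter window was examined. The site at +1.7 kb (chr1:40084457-40088340) spans the first exon, and exons of the antisense gene Gm16894 also lie in it. In each Th2 library a single peak reached over the start, at percentiles 83.2 and 82.1, and covered 3793 and 3735 bp of the site. In the other 4 libraries a pair of separate peaks lay downstream of the start. They covered 1532 and 2108 bp in Th9, with higher percentiles of 87.8 and 85.3, and 1262 and 1057 bp in Th17, at 77.6 and 65.2. A promoter call, meaning a peak within 1000 bp upstream to 100 bp downstream of a start, was therefore made in Th2 alone, as for 0.383% of protein-coding genes. This call rested on the edge of the window, since all 6 libraries were called with 2000 bp on either side. Fold enrichment at this site was higher in Th9 than in Th17 by 0.59 (SE 0.15, limma adjusted p = 0.0469), and the call was lost when any single library was left out (adjusted p 0.0537 to 0.312). Within the gene, the intron site at +25.0 kb was called in all 6 libraries with overlapping percentiles from 50.3 to 81.7, and its central 300 bp was 66.3% repeat-masked. The narrow intron site at +31.8 kb (chr1:40116394-40116694) was called in Th9 alone, at 62.0 and 65.0. The remaining intron site, at +28.7 kb, was called in Th9 replicate 3 and Th2 replicate 3, at 16.3 and 23.6.

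Il1r1, which encodes the signalling IL-1 receptor (ENSMUSG00000026072.12, chr1:40225080-40317257), held 14 of the 55 sites, and has 2 annotated starts. The first start (40225080) lay under a narrow site (chr1:40224773-40225216) called at percentiles 46.7 and 59.9 in Th2 and 59.7 and 62.8 in Th17. Neither Th9 library had a peak there. The second start (40266586) had a peak over it in Th9 replicate 1, at 57.8, and a peak within its promoter window in Th2 replicate 3, at 35.1. No subset therefore had a call in this window in both libraries. These calls also rested on the edge of the window. The +43.5 kb site, open in all 6 libraries, begins 1445 bp downstream of the second start. With 2000 bp on either side of a start, Il1r1 was called in all 6. Upstream of the first start, 2 sites were called in the Th17 libraries alone. The -34.8 kb site (chr1:40190103-40190429) was at 76.9 and 48.5, and the -7.7 kb site (chr1:40217144-40217534) was at 42.1 and 41.6. Just inside the gene, sites at +3.1 kb and +5.7 kb were called in both Th17 libraries and Th2 replicate 3, at 54.4, 61.8 and 57.2 for the first and 59.7, 24.7 and 23.3 for the second. Neither was called in a Th9 library. The gap between Il1r2 and Il1r1 also held a site at -40.2 kb, called in 4 libraries at 13.7 to 71.4, and a weak site of Th2 replicate 3 at -29.7 kb.

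Farther into Il1r1, the Th17 libraries were the lowest at 2 intron sites open in all 6 libraries. The site at +11.1 kb (chr1:40235603-40236797) was at percentiles 85.2 and 80.7 in Th9, with 86.7 and 91.1 in Th2 and with 68.4 and 47.9 in Th17. The site at +43.5 kb (chr1:40268031-40269074), which held the peak with the highest fold enrichment of the cluster, was at 88.2 and 86.8 in Th9, with 91.5 and 95.4 in Th2 and with 77.2 and 76.7 in Th17. Th2 was higher than Th17 by 0.98 at the first (SE 0.18, limma adjusted p = 0.0101) and by 0.96 at the second (SE 0.19, limma adjusted p = 0.0154). Th9 was higher than Th17 by 0.68 and 0.49, which did not pass (limma adjusted p = 0.0599 and 0.198). Neither Th2 to Th17 call held without Th17 replicate 1, Th17 replicate 3 or Th2 replicate 3, with differences of at least 0.72 and 0.67 and adjusted p up to 0.125 and 0.132.

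The neighbouring intron site of Il1r1 at +46.2 kb (chr1:40270954-40271677), whose sequence with adjoining GATA words is given above, was called at 71.3 and 71.2 in the Th9 pair and at 81.8 and 80.2 in the Th2 pair. No Th17 library had a peak there. Farther along, the narrow site at +48.6 kb (chr1:40273572-40273805) was called in Th9 alone, at 40.4 and 9.35. The site at +90.5 kb (chr1:40315368-40315817) lies in the last exon, number 11, in the 3′ UTR. It was at 92.0 and 88.3 in Th9 and at 74.0 and 61.2 in Th17, with no peak in either Th2 library. The sharing of a site by Th9 and Th17 without Th2 was the rarest of the 6 patterns genome-wide. The other 5 sites of the gene were each called in a single library, at percentiles of at most 41.5.

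Il1rl2, the IL-36 receptor gene (ENSMUSG00000070942.8, chr1:40324610-40367562), held 2 sites. Its promoter site (chr1:40324522-40325421) was at percentiles 60.5 and 42.3 in Th2 and 50.5 and 18.8 in Th17, and in Th9 it was called in replicate 3 alone, at 7.39. The replicate 3 libraries were below replicate 1 in Th2 and Th17. The intron site at +35.4 kb (chr1:40358739-40361291) was wide in Th9, where single peaks covered 2433 and 2553 bp at 73.8 and 71.9. In Th2 the peaks covered 1236 and 307 bp, at 67.8 and 55.5. In Th17 replicate 1 a narrow peak of 377 bp stood at 85.2, and Th17 replicate 3 had none.

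Il1rl1, which encodes the IL-33 receptor ST2 (ENSMUSG00000026069.15, chr1:40429570-40465415), was the gene with the least open chromatin at its starts. It has 4 annotated starts, a distal start (40429570) and 3 further in. None of these 3 had a peak in its promoter window in any library. The distal start had one in Th2 replicate 3 alone (chr1:40429028-40429508), at percentile 76.7, which ended 62 bp before the start. Th2 replicate 3 also called sites at -29.7, -10.9 and -4.1 kb that no other library called, at 62.6, 64.8 and 60.5. These 4 sites were absent from Th2 replicate 1, so accessibility next to the distal start differed between the libraries of that subset.

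In the gap upstream of Il1rl1, 2 sites were open in all 6 libraries and differed between subsets in different ways. The -36.1 kb site (chr1:40393096-40393876) was at percentiles 79.8 and 74.6 in Th9, with 90.9 and 93.2 in Th2 and with 82.6 and 67.0 in Th17. The Th2 libraries were above the other 4, by 0.82 against Th9 (SE 0.18, limma adjusted p = 0.0428) and by 0.84 against Th17 (SE 0.18, limma adjusted p = 0.0194). The first call was lost when any single library was left out (adjusted p 0.0527 to 0.179), and the second was lost without Th2 replicate 3 or Th17 replicate 3 (adjusted p up to 0.207, difference at least 0.64). The -16.3 kb site (chr1:40412339-40414183) was at 86.0 and 87.8 in Th9, with 83.9 and 82.3 in Th2 and with 69.6 and 51.1 in Th17. There the Th17 libraries were lowest, and Th9 was higher than Th17 by 0.86 (SE 0.17, limma adjusted p = 0.0189). That call was lost without Th9 replicate 3 or either Th17 library (adjusted p up to 0.171, difference at least 0.66). The other 3 sites of the gap called in more than 1 library, at -50.6, -49.3 and -46.6 kb, were weak, with percentiles of at most 41.4, and the last site of the gap was called in Th9 replicate 3 alone, at 42.3.

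Within the body of Il1rl1 there were 2 sites. The intron site at +15.3 kb (chr1:40444662-40445147) was open in all 6 libraries, at 75.2 and 68.2 in Th9, with 82.5 and 71.0 in Th2 and with 82.9 and 65.1 in Th17, and the subsets overlapped. Th2 and Th17 differed there by 0.0042 on the log2 scale, with a 95% interval from -0.39 to 0.39. The intron site at +19.9 kb (chr1:40449329-40449710), with its 3 STAT5 words, was called in Th9 alone, at 47.2 and 70.8.

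Il18r1, the ligand-binding chain of the IL-18 receptor (ENSMUSG00000026070.15, chr1:40465552-40500854), begins just after the end of Il1rl1 and had an open promoter in every library. Its promoter site (chr1:40465509-40466380) was at percentiles 85.4 and 76.7 in Th9, with 85.1 and 82.0 in Th2 and with 87.5 and 80.1 in Th17. The subsets overlapped and no difference passed: Th9 and Th17 differed by -0.16, with a 95% interval from -0.49 to 0.17. A call in all 6 libraries is common among promoters, at 58.7% of protein-coding genes. Close behind it, the +1.7 kb site was called at 71.9 and 63.2 in Th2 and 75.3 and 54.4 in Th17, but in Th9 in replicate 1 alone, at 19.1.

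The Il18r1 site called in Th17 alone lay at +14.1 kb in an intron (chr1:40479389-40479953), and its sequence is given above. It was at percentiles 87.3 and 84.9 in the Th17 libraries, with peaks of 403 and 565 bp and fold enrichments of 4.49 and 4.01. No peak of the 4 Th9 and Th2 lists overlapped it. It was the strongest of the 8 sites called in a single subset. The site at +4.6 kb (chr1:40469964-40470380) had the reverse pattern, at 64.3 and 58.0 in Th9 and 30.6 and 10.3 in Th2, with no Th17 peak. The Th9 libraries were the higher pair there. Intron sites at +10.2 and +20.1 kb were called in all 6 libraries, with overlapping percentiles from 46.0 to 74.8 and from 31.3 to 65.8. The central window of the +20.1 kb site was 56.3% repeat-masked. The 2 remaining sites of the gene, at +9.1 and +11.4 kb, were called in Th2 replicate 1 (45.6) and in Th2 replicate 3 and Th17 replicate 1 (4.56 and 34.7).

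Il18rap, the accessory chain of the IL-18 receptor (ENSMUSG00000026068.11, chr1:40515362-40551705), had a strong promoter site in all libraries (chr1:40514935-40516847). It was at percentiles 91.1 and 88.1 in Th9, with 86.8 and 88.9 in Th2 and with 78.7 and 73.9 in Th17. Both Th17 libraries were below the other 4. Th9 was higher than Th17 by 0.67 (SE 0.15, limma adjusted p = 0.0323), and Th2 by 0.48 (SE 0.15), which did not pass (limma adjusted p = 0.101). The Th9 call was lost without any of the Th9 or Th17 libraries (adjusted p up to 0.185), while the difference stayed between 0.63 and 0.69. The intron site at +14.2 kb (chr1:40529297-40529844) was called in Th9 alone, at 64.9 and 32.5, and holds a pair of GATA words. A wide, weak peak over exon 10 was called in Th2 replicate 3 alone, at 19.4. Downstream of the gene, the site at +38.4 kb was open in all 6 libraries at 27.9 to 60.2, and its central 300 bp was 100% repeat-masked.

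Across the 15 sites called in every library, the differences passed more often against Th17 than between Th9 and Th2, as they also did genome-wide. Between Th2 and Th17, 4 of 15 passed (genome-wide 7.24%), each higher in Th2, where 4.93% of all tested sites were higher in Th2. Between Th9 and Th17, 3 of 15 passed (6.05%), each higher in Th9 (3.16%). Between Th9 and Th2, 1 of 15 passed (2.81%), higher in Th2 (1.93%). None of the 15 was called higher in Th17, as 2.32% and 2.89% of tested sites were against Th2 and Th9, and none higher in Th9 than in Th2 (0.883%). The comparisons share libraries and are not independent of each other. With each list centred on its median in place of quantile normalization, 714 of 1382 calls genome-wide between Th9 and Th2 were higher in Th9, against 446 of 1418, and the median of all sites lay 0.12 higher in Th9 on the log2 scale. The Il1rl1 -36.1 kb site was then not called between Th9 and Th2 (limma adjusted p = 0.0511). Counts depended on the scale: after conversion to percentiles, limma called 0 sites of the cluster and 0 genome-wide, although 6, 5 and 0 of the 15 had an unadjusted p under 0.05 in the same order of comparisons.

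**Figure D3:**
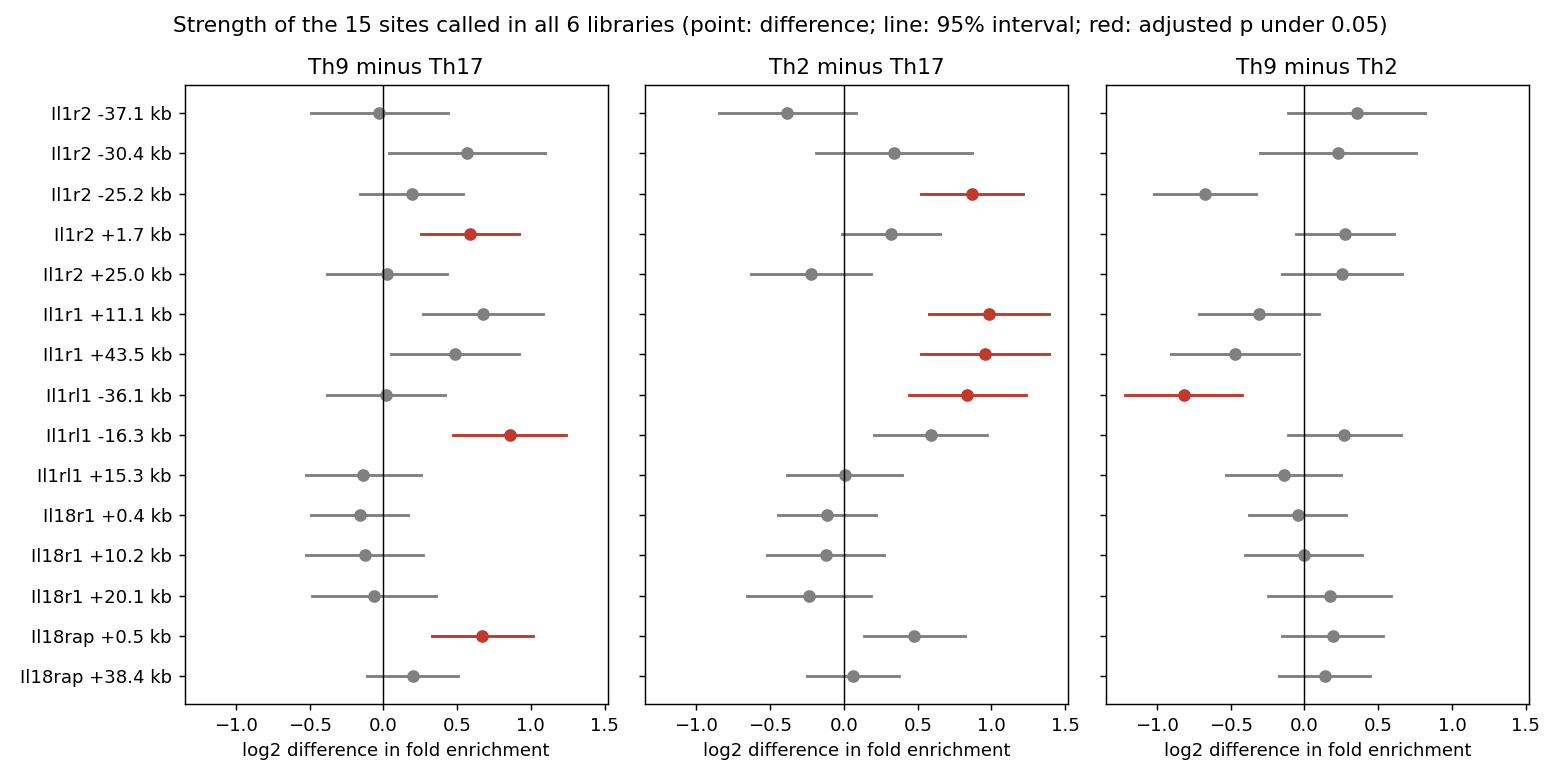
Differences in log2 fold enrichment for the 15 sites called in all 6 libraries (rows), between the subsets named above each panel; points are limma estimates and lines their 95% intervals, in red where the adjusted p was under 0.05. The 4 red points of Th2 minus Th17 and the 3 of Th9 minus Th17 lie to the right of 0, and that of Th9 minus Th2 to the left.

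Sites that a subset lacked could be given a size only by setting each uncalled library to the lowest fold enrichment of its list. This was done for the 117820 sites called in both libraries of at least 1 subset, 36 of them in the cluster. A site enters this fit through a subset in which it was called, and the set values have no spread, so a difference from set values restates which libraries called the site and is given with no p. On this scale the Il18r1 +14.1 kb site was higher in Th17 than the set values of Th2 and Th9 by 1.38 each. The Il1r1 +46.2 kb site stood above the set values of Th17 by 0.98 in Th2 and by 0.74 in Th9, and the Il18r1 +4.6 kb site stood above them by 0.52 in Th9. The Il1r1 +90.5 kb site was measured in all Th9 and Th17 libraries, with fold enrichments of 6.23 and 5.75 in Th9 and 2.99 and 2.44 in Th17. Th9 was higher there than Th17 by 0.93 on the log2 scale (SE 0.078, limma adjusted p = 0.0109). With a library left out the difference stayed between 0.88 and 1.00. On the within-list percentile scale the site was not called (limma adjusted p = 0.115). The set values of Th2 enter the estimate of the spread and have none of their own. The SE of 0.078 and the adjusted p of 0.0109 may therefore be too small. In all, 5 of 36 sites passed between Th2 and Th17 (genome-wide 8.69%), of which 3 were higher in Th2 (5.40%) and 2 in Th17 (3.29%). Between Th9 and Th17 7 passed (6.98%), of which 6 were higher in Th9 (3.45%) and 1 in Th17 (3.52%). Between Th9 and Th2 1 passed (2.88%), that of Il1r1 +90.5 kb against the set values of Th2, higher in Th9 (0.929%), and none was higher in Th2 (1.95%). The calls higher in Th17 than in Th2 or Th9, and the call between Th9 and Th2, were all against set values. So were those of Il1r1 +46.2 kb and Il18r1 +4.6 kb against Th17. Such calls restate which libraries called the site, and the genome-wide shares include calls of this kind too. Of the differences called among the 15 sites open in all libraries, 3 were not called in this fit, namely those of Il1rl1 -36.1 kb between Th2 and Th9 (limma adjusted p = 0.0872) and between Th2 and Th17 (0.0587) and that of Il1r1 +43.5 kb between Th2 and Th17 (0.0664).

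The share of each gene body under peaks, divided by the share of the genome under peaks in the list, gave a level for each gene in each library. Il1r2 stood at 1.38 and 2.16 in Th9, with 2.1 and 2.33 in Th2 and with 1.12 and 1.10 in Th17, so the Th17 libraries were the lowest. Il1r1 stood at 1.19 and 1.10, 0.669 and 1.08, and 0.843 and 1.39 in the same order, and the subsets overlapped. Il1rl2 stood at 1.52 and 2.55 in Th9, with 1.01 and 0.522 in Th2 and with 0.786 and 0.475 in Th17, with the Th9 libraries highest. Il1rl1 was below the genome's average in every library, at 0.512 and 0.700 in Th9, with 0.273 and 0.331 in Th2 and with 0.298 and 0.271 in Th17, again with Th9 highest. Il18r1 stood between 1.20 and 1.93 and Il18rap between 0.899 and 1.89, with overlapping subsets. Among 17779 genes at least 5 kb long, the coverage of Il1rl1 lay at percentiles 21.3 to 32.5, while Il1r2 lay at 51.8 to 74.4.

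Of 18 comparisons of a subset with the other 4 libraries, 3 reached the smallest p of the design (exact two-sided permutation tests, p = 0.0667, adjusted p = 0.4). These were the lower coverage of Il1r2 in Th17, by 0.88 (1.11 ± 0.0154, SD, n = 2, against a mean of 1.99), and the higher coverage in Th9 of Il1rl2, by 1.34 (2.03 ± 0.731 against 0.699), and of Il1rl1, by 0.31 (0.606 ± 0.132 against 0.293). Most of the Il1rl2 coverage in Th9 was the wide peak at +35.4 kb, and with peaks of at least 4-fold enrichment the difference was -0.22. For Il1rl1 the difference was 0.073 with peaks of a −log10 q of at least 5 (exact permutation p = 0.667) and 0 with peaks of at least 4-fold enrichment (p = 1). No comparison could pass a threshold of 0.05. By mean relative coverage the genes stood in the order Il1rl2, Il1r2, Il18r1, Il18rap, Il1r1 and Il1rl1 in Th9, and the libraries of neighbouring genes overlapped except between Il1r1 and Il1rl1. In Th2 the order was Il1r2, Il18rap, Il18r1, Il1r1, Il1rl2 and Il1rl1, with overlap between Il18rap and Il18r1 and between Il1r1 and Il1rl2. In Th17 the order was Il18r1, Il1r1, Il1r2, Il18rap, Il1rl2 and Il1rl1, with overlap between Il1r1 and Il1r2. Il1rl1 was last in each subset and did not overlap the gene before it.

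**Figure D4:**
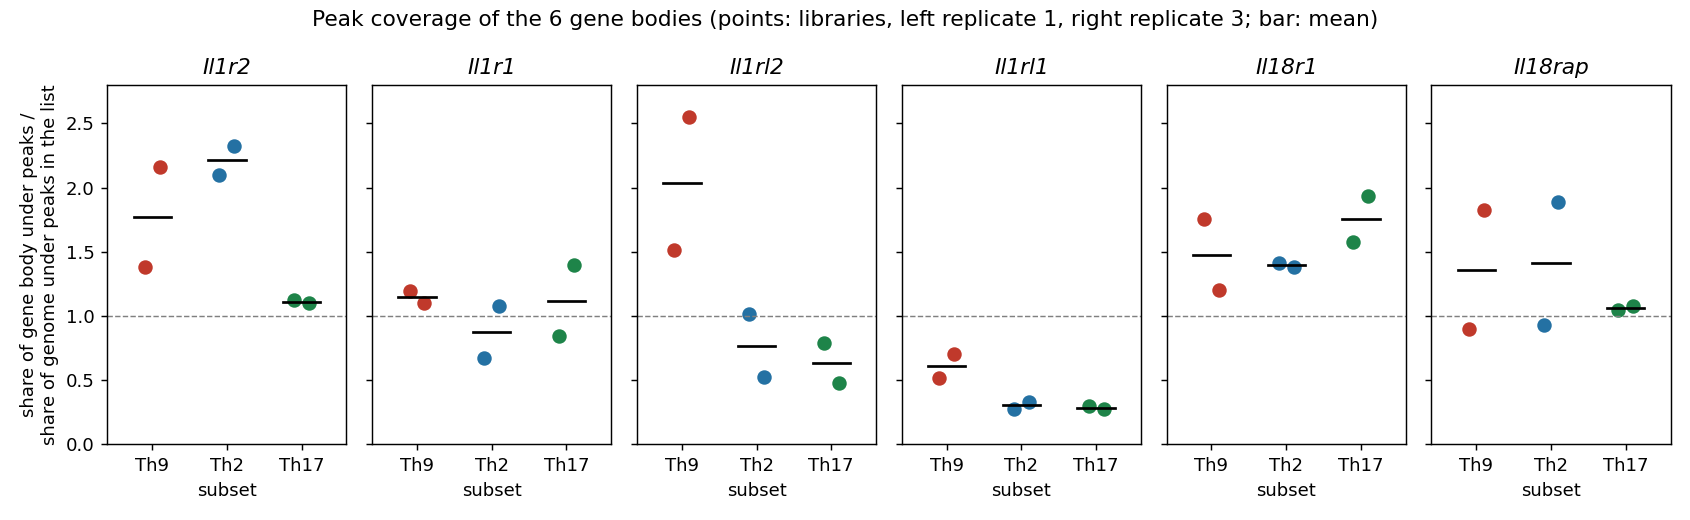
Relative coverage of the 6 gene bodies (panels) by subset: each point is a library (left replicate 1, right replicate 3), bars are means and the dashed line at 1 is the genome's share in the list. Th17 libraries are lowest at Il1r2, Th9 libraries are highest at Il1rl2 and Il1rl1, and Il1rl1 lies below 1 throughout.

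Promoter calls of the 6 genes summed to 25 of 36 library and gene combinations. Il18r1 and Il18rap had 6 each, Il1r1 and Il1rl2 had 5 each, Il1r2 had 2 and Il1rl1 had 1. Among all protein-coding genes, the share with a promoter call ran from 62.4% in Th17 replicate 3 to 66.9% in Th2 replicate 3. The total of 25 is therefore no mark of these receptors. For comparison, 28 other genes of the pathway were listed. Of these, 15 had a promoter peak in all 6 libraries, against 58.7% of protein-coding genes, and 9 had none in any library, against 28.0%. The 15 included the shared accessory chain Il1rap, the adaptor Myd88, the IRAK family genes Irak1 to Irak4, the kinase Map3k7, Traf6, Tab1, Tab2 and Tab3. The others of the 15 were the inhibitor Tollip, Casp1, which activates IL-1β and IL-18, the cofactor Nfkbiz and the ligand Il18. In 9 of the 15, every library lay above percentile 90. The promoter peaks of Il18r1 and Il18rap, at 73.9 to 88.9, were below those of Il1rap, at 97.8 to 99.2.

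The 9 genes without a promoter peak, 6 of which also had none within 2000 bp on either side, included ligands and their antagonists. They were Il1a, Il1b, Il33, Il18bp, Il36a, Il36g, Il36rn, Il1f10 and the neuronal receptor gene Il1rapl1. Of the remaining 4, the ligand gene Il36b (annotated as Il1f8) was called in the Th2 and Th17 libraries alone, at 49.6 and 71.5 and at 51.9 and 69.8 (0.228% of protein-coding genes). The antagonist Il1rn was called in Th9 replicate 1 alone, the inhibitory receptor Sigirr in Th9 replicate 3 and Th2 replicate 3, and Il1rapl2 in 3 libraries.

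Markers of the cells were read from promoter calls. Cd3e, Cd3g, Cd28 and Cd2 were called in all 6 libraries and Cd4 in 4. Il9 and Il4 were called in the Th9 and Th2 libraries, so neither call separated these subsets, although the Il9 peaks were at percentiles 88.6 and 90.7 in Th9 and at 37.1 and 44.4 in Th2. Il13 was called in the Th2 libraries, Il17f in the Th17 libraries, and Il17a in these and Th2 replicate 3. With 2000 bp on either side of a start, Il13 was called in the Th9 libraries as well. Of 9 markers of myeloid cells, natural killer cells, mast cells and basophils, 6 were called in no library, namely Csf1r, Itgam, Lyz2, Ncr1, Cpa3 and Mcpt8. Of the other 3, Adgre1 was called in the Th9 and Th2 libraries at 8.96 to 47.8, Fcer1a in 5 libraries at 10.1 to 55.3, and Klrb1c in a single library. Fewer cells with an open site and less opening per cell cannot be told apart in these bulk samples.

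Sequence words were counted in the central 300 bp of each site. GATA words were present in 16 of the 55 sites (29.1%, against 21.4% of all sites), AP-1 words in 11 (20% against 11.7%), STAT5 words in 7 (12.7% against 8.64%), STAT6 words in 2 (3.64% against 6.52%) and RUNX words in 5 (9.09% against 7.04%). Of the 3 Th17 sites, 2 held an AP-1 word, as did the 1 Th2 site and 5 of the 15 sites open in all libraries. AP-1 words were in 0 of the 4 Th9 sites, in no site called in 2 subsets alone and in 3 of the 28 sites of other patterns. GATA words were in 1 of the 4 Th9 sites, 1 of the 3 Th17 sites, 0 of the 1 Th2 site and 10 of the 28. STAT5 words were in 1 of the 4 Th9 sites, 0 of the 3 Th17 sites and 3 of the 28. These counts are too small to tie a word to a subset. Of the 4 sites called in Th2 replicate 3 alone upstream of Il1rl1, those at -29.7 and -10.9 kb held 3 GATA words each, that at the distal start held 1 and that at -4.1 kb held 0. Of the 55 central windows, 11 were over 50% repeat-masked, and the median masked share was 11.3%, against 17.7% for all sites.

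The genes whose coverage followed each member most closely over the 6 libraries were read from 16079 other protein-coding genes. Over only 6 libraries, which share list length and depth, such likeness is a description. They were Prkd2 (r = 0.998) and Gm7030 (0.997) for Il1r2, Olfr1280 (0.985) and Dvl1 (0.971) for Il1r1, Proz (0.987) and Frmd8 (0.987) for Il1rl2, Enpp7 (0.995) and Nphp4 (0.993) for Il1rl1, Acvr2a (0.985) and Nubpl (0.981) for Il18r1, and Prmt5 (0.997) and Zc3hc1 (0.997) for Il18rap. Between 5 genes for Il1r1 and 324 for Il1r2 had a correlation above 0.95. Of the other genes annotated in the window, Slc9a4 had an intron site called in 5 libraries at 43.9 to 64.3, and an exon of Gm38070 lay under a weak site of Th17 replicate 3. The remaining site, 50.1 kb beyond the start of Il18rap, was called in Th9 replicate 3 alone, at 12.7. Gm16894 shared the site at the start of Il1r2, and Map4k4, 4930456G14Rik, Gm37347, Gm17970, Gm35801 and Gm37435 had no peak assigned to them.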

How the data were processed

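ATAC-seq peaks of 6 libraries were analysed. Per the labels and the methods, the authors trimmed reads with Trim Galore 0.4.3, aligned pairs to mm10 with bowtie2, removed duplicates with Picard and called broad peaks in each library on its own with MACS2 2.1.0, with no local background and no control, so DNA present in many copies can be called. A correction for the Tn5 cut offset and the cutoff were not given in the sources used here. The deposited lists held an integer display score (not used), a fold enrichment (a linear ratio to the library's background), and −log10 p and −log10 q, which the authors took from MACS2 and which served here as filters. Background fragments were recovered from flat peaks, and depth limits weak calls only.

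Peaks were assigned with the basic set of GENCODE M21. Tests used Python 3.11.15 (exact permutation, two-sided) and limma 3.58.1 in R 4.3.3, adjusted by Benjamini-Hochberg over all sites tested, threshold 0.05, with 3 residual degrees of freedom, and were checked on simulated data. Named were the 6 members, the other genes of the window, the pathway and marker lists, and for each member the 2 genes of at least 5 kb with the most similar coverage. The B cell marker list is not reported here. Members, lists and tests were chosen with earlier results of these data known. Nothing in the labels says that libraries came from separate animals, so p-values measure the spread between these samples, which may be technical. Alternatives were other peak filters, overlaps, promoter windows, scales, a replicate block and leaving out each library.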

Additional observations from a re-analysis of the deposited data

How the results depend on the processing

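Counts of sites by pattern moved with the peak filter. At a −log10 q of at least 5, sites called in all libraries fell from 15 to 6, those of Th9 and Th2, of Th9 alone and of Th2 alone to 0, and those of Th17 alone to 1. At a fold enrichment of at least 4 the window held 13 sites. Sites in all libraries numbered 0 (36.5% genome-wide), those of Th2 and Th17 0 (0.554%) and of Th9 and Th17 0 (0.230%). Those of Th9 and Th2 numbered 3 (5.01%), of Th9 alone 1 (2.38%), of Th2 alone 2 (5.09%) and of Th17 alone 1 (1.40%). Promoter calls fell from 25 to 9. At a fold of at least 2.2 the window held 42 sites. Th9 and Th2 held 1 (3.09% genome-wide), Th2 and Th17 held 0 (0.657%), Th2 alone 2 (2.41%) and Th17 alone 1 (1.10%). With 50% of a site covered, all libraries held 8 and Th2 and Th17 held 0. With lists of equal length, Th9 and Th2 held 1 of 53 sites (2.05% genome-wide) and Th2 and Th17 held 2 (1.53%). With each library left out, Th2 and Th17 held 1 to 3, Th9 alone 4 to 7, Th2 alone 1 to 7 and Th17 alone 3 to 6.

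Relative coverage of the window in Th2 minus the others, -0.012, changed sign under the −log10 q filter (0.0491), the fold filters of 4 (0.805) and 2.2 (0.0883) and equal list lengths (0.0293), and ran from -0.183 to 0.159 with a library left out. That of Th9 ran from -0.0218 to 0.393. That of Th17, -0.173 (exact permutation p = 0.533), was -0.381 under the −log10 q filter and -1.19 under the fold filter of 4 (p = 0.0667, the smallest possible). For Il1rl2 in Th9 a fold of at least 4 gave -0.219.

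Calls by limma among the 15 sites open in all libraries, for Th9 minus Th2, Th9 minus Th17 and Th2 minus Th17, were 1, 3 and 4. Centring on the median gave 0 for the first, the percentile scale 0, 0 and 0, and length-weighted folds 1 for the second. With a library left out they ran from 0 to 0, 0 to 3 and 0 to 5. Among the 36 sites of the other fit, calls were 1, 7 and 5. Centring gave 3 for the second, the percentile scale 5 for the first and length-weighted folds 2 for the first. With a library left out they ran from 0 to 8, 3 to 10 and 1 to 8. The direction of each called site held in every alternative in which it was tested. Genome-wide calls for these comparisons were 1418, 3057 and 3658 among sites open in all libraries and 3391, 8218 and 10237 in the other fit. The percentile scale gave 0, 0 and 0 of the former and 7625, 9666 and 12015 of the latter, of which 1514 against 1094 were higher in Th9 than in Th2 and 8794 against 6363 in Th2 than in Th17. A library left out gave 0 to 528, 408 to 3255 and 1001 to 3931 of the former and 0 to 14634, 3050 to 16852 and 4580 to 9037 of the latter. The replicate block gave 0 for Th9 minus Th2 in the latter. The lone library left in a subset was assumed to vary like the others.

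A replicate block gave 2 calls among the 15 sites for Th9 minus Th2, and 0 for Th9 minus Th2, where the Il1r1 +90.5 kb call was lost, and 3 for Th9 minus Th17 among the 36. Differences between replicates 1 and 3 correlated at 0.207 between Th9 and Th2, 0.00984 between Th9 and Th17 and 0.000962 between Th2 and Th17 across sites open in all libraries. In each subset, replicate 3 had a shorter peak list and a higher background than replicate 1. The labels do not say what equal numbers mark, so whether the libraries were paired cannot be told.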
